A study of Mus musculus with 7 samples.

Results

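The proteasome is the large protease of cytosol and nucleus that degrades proteins tagged with ubiquitin. Its genes were taken here as all probe sets whose single gene symbol in GEO's platform annotation begins with Psma to Psmg and a digit. This rule found 103 of 45037 sense probe sets, for 49 of 18193 genes, and 12 of 5652 reverse probe sets, for 10 of 2915 genes, 50 genes in all. Psmc3ip and Psme3ip1 matched by spelling only, since they are named as partners of a subunit, which left 47 subunit, activator and assembly genes on the sense arrays. Psme2 was on the list through its reverse probe set alone, because its sense probe set carries several symbols.

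The data were 7 Affymetrix arrays of total RNA from dissected mouse brain and mouse kidney, with 1 array for each tissue and design. Sense RNA of brain was read on 430A (22626 probe sets) and 430B (22511), and sense RNA of kidney on 430 2.0 (45037), which holds the probe sets of both. RNA opposite in strand was read in both tissues by the reversed probe sets of U74A (2611) and U74B (3041). Strain, age and any treatment of the animals are not given in the sources used here. With 1 array per group no value has a replicate error and no difference was tested, so ratios and counts past 2-fold are a description of these arrays. Brain and kidney sense values also come from different array types, which cannot be told apart from tissue. In whole tissue, fewer cells of a type and less RNA per cell cannot be told apart either.

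The proteasome has a barrel-shaped core of stacked rings of alpha and beta subunits, with the cutting sites inside the beta rings. A regulatory particle on its end binds ubiquitin chains, removes them and unfolds the substrate through a ring of ATPases. In cells exposed to interferon gamma, the catalytic beta subunits are replaced by immune forms (Psmb8, Psmb9 and Psmb10), which changes the peptides made for display on MHC class I. Other caps (Psme1 to Psme4) open the core without ubiquitin, and dedicated chaperones assemble the particle. All cell types use it, and in neurons it takes part in the turnover of synaptic proteins.

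Signals below are the deposited MAS5 signals, a brightness on a linear scale. Ratios are log2 brain over kidney after the 430A brain signals were multiplied by 1.79, which set the median ratio of the brighter shared probe sets to 0. Signals under a floor (186.4 in units of the kidney array, 104 as deposited in brain) were raised to it first, and a probe set under it in both tissues has no ratio. A gene is represented by the probe set whose percentile, averaged over the tissues, is highest. Signals of different genes are not ranked, because probe sets differ in binding strength.

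The tissue check came first. Each of the 6 brain markers measured was 2-fold or more higher in brain, and 6 of the 7 kidney markers in kidney, with Nphs1 of the podocyte under the floor in both. Of 6 endothelial markers 3 were higher in kidney and none in brain. Of 19 immune cell markers 9 were above the floor, 1 of them higher in brain and 2 in kidney, and both kidney calls lay on 430B and were lost on the 430A scale. Their summed 430A signal was 4426 in brain after centring and 3330 in kidney (17 markers, most of them under the floor). The brain sum carries the centring factor, and both sums mix genes whose probe sets differ in binding strength. The median ratio of the immune markers above the floor turned from 0.03 after centring to -0.31 with signals as deposited. The sums are therefore not read as more immune cells in either tissue.

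After centring, most proteasome genes had the higher signal in kidney, and the core genes had the lowest brain over kidney median. Of the 47 genes, 43 passed the floor in at least 1 tissue, all by a 430A probe set. Over both designs, 12984 of all 18193 genes passed. Of the 43 members, 12 had at least 2-fold more signal in kidney, 1 in brain, and 30 passed 2-fold in neither direction. Among all 8165 genes above the floor by 430A, 20.3% were higher in kidney and 19.2% in brain, with a median of 0.05; with 430B added, the shares were 27% and 17.8% of 12984. The members' kidney count was thus not far from the share of all genes, while their brain count was low beside it. The median log2 ratio of the 43 genes was -0.51, and 35 of them lay below 0. The median stayed below that of all genes under every scaling and floor tried. The gap ran from -0.32 with quantile normalization to -1.43 with signals as deposited. In both, the all-gene median includes 430B, whose deposited offset ran against that of 430A (2.08 and -0.84 removed by centring). The -1.43 thus holds an offset between arrays. After centring, the gap to genes of 430A alone was -0.56. Members were bright, so the same values were taken among the 430A probe sets above the 75th percentile of both arrays. There, kidney was the higher tissue for 13 of 43 member probe sets and brain for 1 (median -0.69), against 807 and 287 of 3362 in all (median -0.30). Among 430A probe sets above the floor in both tissues, 15 of 59 members were higher in kidney and 2 in brain, against 24.1% and 13.7% of all 7434. The 59 include that of Psme3ip1, matched by spelling only and within 2-fold.

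Psma5 and Psme1 kept the kidney call under every setting in which they were measured. With quantile normalization Psma3, Psmb1, Psmb4 and Psmc3 came within 2-fold. With the median over a gene's probe sets Psma1, Psma3, Psmb1 and Psme4 did so, and with plain probe sets alone, those with no suffix mark, Psma3, Psma6, Psma7, Psmb1, Psmb3 and Psme4.

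**Figure D1:**
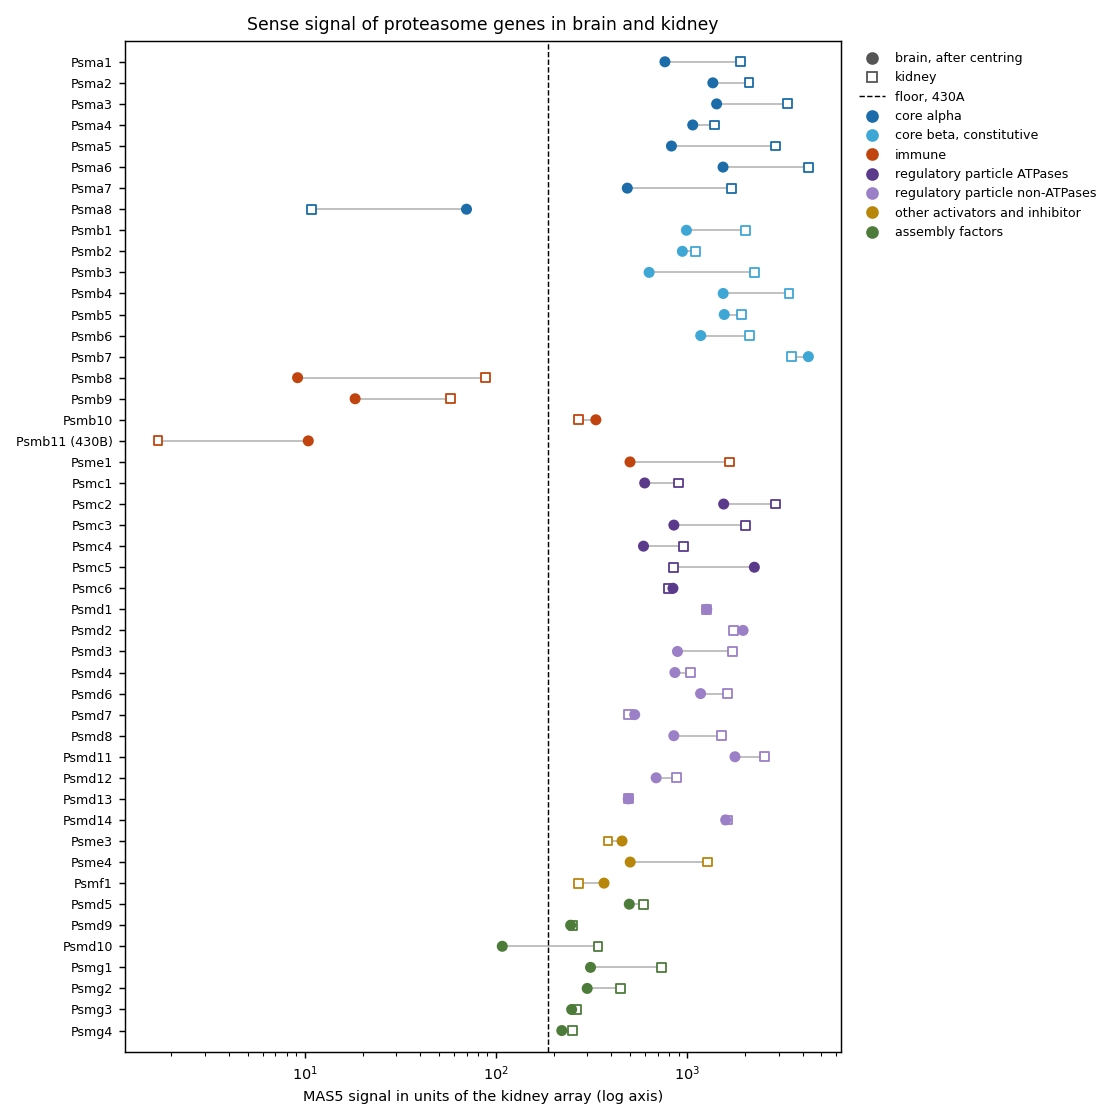
Sense signal of the 47 proteasome genes in brain (filled circles, after centring) and kidney (open squares), on a log axis in units of the kidney array, coloured by subunit group; each gene is shown by the probe set that represents it. Most core genes sit to the right of the dashed 430A floor of 186.4 with the kidney square beyond the brain circle, while Psmc5 runs the other way by the widest distance above the floor, and Psma8, Psmb8, Psmb9 and Psmb11 lie under the floor of their array in both tissues.

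The alpha subunits form the outer rings of the core and its gate. Of 8 genes, 7 passed the floor, 5 of them were higher in kidney and 2 in neither, and the median ratio was -1.32. Psma5 read 460.4 in brain and 2900 in kidney, 3.52-fold higher in kidney, and its other probe set above the floor gave 308.7 and 1206 (2.18-fold). Psma7 read 270.5 and 1696 (3.50-fold), and Psma1 425.7 and 1899 (2.49-fold). Psma6 read 857.1 and 4285 (2.79-fold) by the probe set that represents it, and 732.3 and 2010 (1.53-fold) by its plain one. Psma3 read 793.3 and 3324 (2.34-fold). Psma2, at 758.1 and 2100 (ratio -0.63), and Psma4, at 594.9 and 1391 (ratio -0.38), stayed within 2-fold, so every alpha gene above the floor was below 0 by the probe set that represents it. Further probe sets of Psma1 (253.3 and 41.1) and Psma3 (187 and 30.2) on 430B gave 0.54 and 0.55 on the scale of that array. These 2 ratios depend on how 430B is scaled. Centred by itself, 430B gives lower ratios than on the 430A scale (-2.87 against -1.27 for the Psma1 probe set on both brain arrays). Psma8, the alpha subunit of the testis, read 39 and 10.8 and lay under the floor in both tissues.

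The constitutive beta rings carry the catalytic sites. All 7 genes passed the floor, 3 were higher in kidney and 4 in neither, and the median ratio was -0.85. The 3 were structural beta subunits: Psmb3, at 351.9 in brain and 2247 in kidney (3.56-fold), Psmb4, at 858.5 and 3399 (2.21-fold), and Psmb1, at 551.5 and 2009 (2.03-fold). Psmb2, the other structural subunit, read 525.1 and 1105 (ratio -0.23). The catalytic subunits were all within 2-fold. Psmb6, with the caspase-like site, read 655 and 2112 (ratio -0.85). Psmb5, the site that cuts after hydrophobic residues and the main target of bortezomib, read 869.5 and 1915 (ratio -0.30). Psmb7, with the trypsin-like site, read 2395 and 3492, and its ratio of 0.30 was the only one above 0 among the core genes represented above the floor.

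The constitutive core as a whole had 8 of 14 measured genes higher in kidney, none in brain and a median of -1.08. The regulatory particle had 1 of 17 in kidney, 1 in brain and a median of -0.35, so core minus particle was -0.74 on the log2 scale. The difference was -0.63 with quantile normalization, where the core had 5 of 14 in kidney and the particle none of 17. It shrank to -0.10 when each gene took the median over its probe sets (core -0.51, particle -0.41) and to -0.04 when only plain probe sets were used (core -0.62 over 12 genes, particle -0.58 over 13). The size of the difference thus turned on which probe set stood for a gene.

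**Figure D2:**
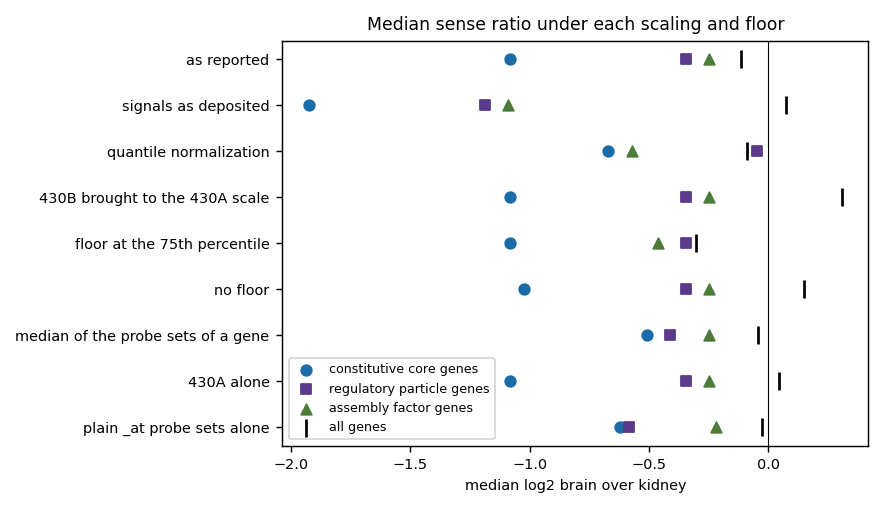
Median log2 brain over kidney of the constitutive core (circles), regulatory particle (squares) and assembly factors (triangles) and of all genes (bars) under each scaling, floor and choice of probe sets. The core lies left of all genes in every row, and the distance between core and regulatory particle is smallest where the probe sets of each gene were reduced to their median and where plain ones alone were used.

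**Figure D3:**
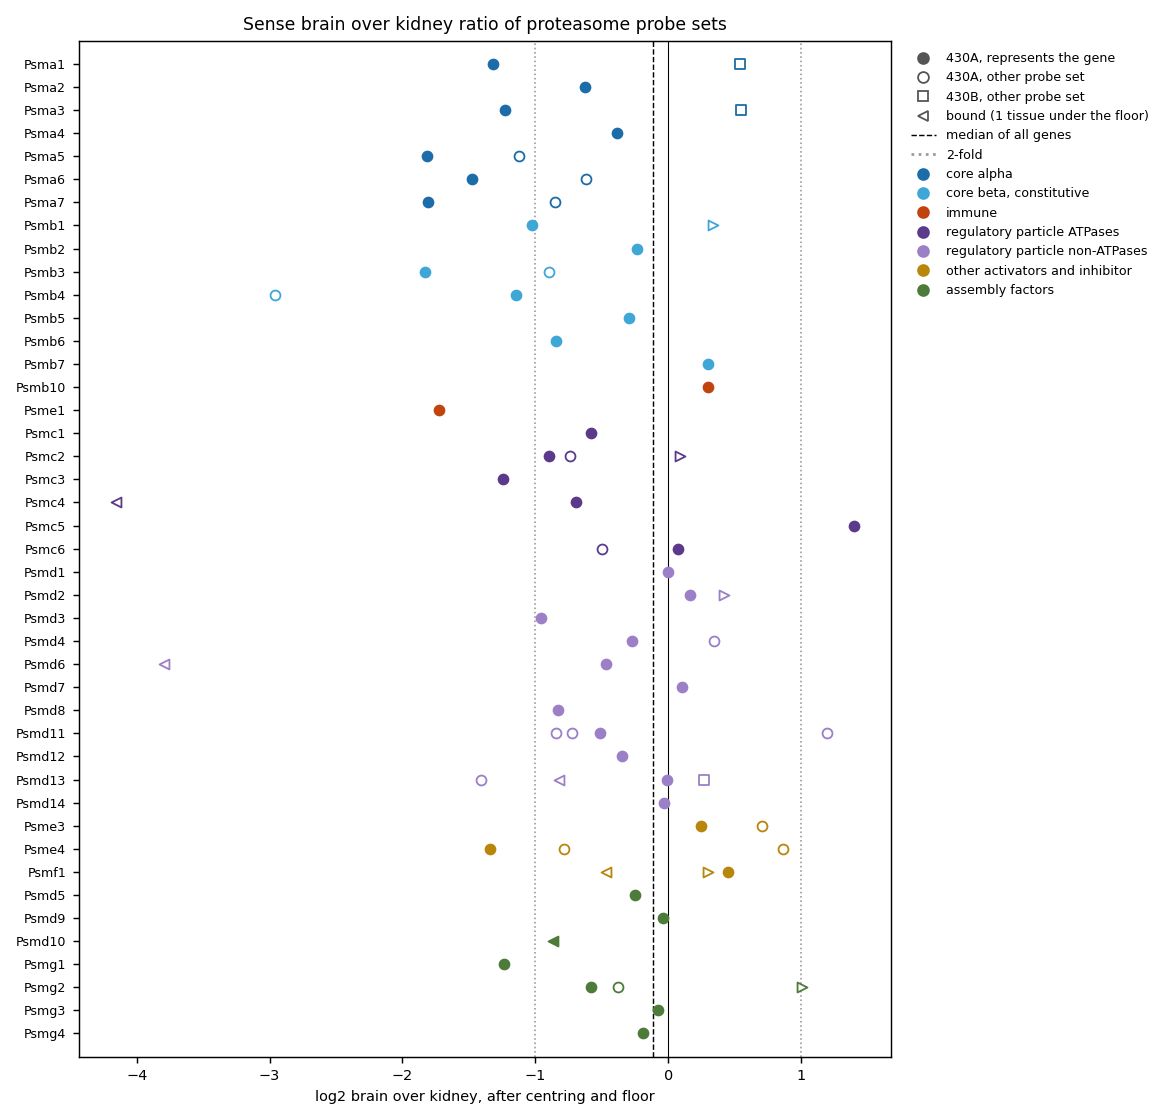
Log2 brain over kidney of every proteasome probe set above the floor, 1 row per gene, coloured by subunit group; filled points represent the gene, triangles are bounds, dotted lines mark 2-fold and the dashed line the median of all genes (-0.11, both designs). Filled core points reach to -1.83, the filled regulatory points lie within 2-fold apart from Psmc3 at -1.25 and Psmc5 at 1.40, and the open points of Psmc4 and Psmd6 lie at -4.16 and -3.79.

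In the regulatory particle, the 6 ATPases form the ring that unfolds the substrate and threads it into the core. Psmc3 was higher in kidney, at 474 in brain and 2014 in kidney (2.37-fold). Psmc5 stood alone in the other direction, at 1250 in brain and 848.3 in kidney (2.64-fold higher in brain; the ratio of 1.40 became 0.56, within 2-fold, with signals as deposited). The other ATPases of the ring were within 2-fold: Psmc2 read 863.5 and 2888 (ratio -0.90), Psmc4 328.8 and 952.5 (-0.69), Psmc1 333.6 and 895.3 (-0.58) and Psmc6 468.8 and 796.7 (0.08). The median of the 6 was -0.64.

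The probe set of Psmc5 is 1 of 100 that sit on both brain arrays, as are those of Psma1 and Psmb5, so these 3 genes were read from brain on 2 arrays. The 430B array read 2707 for Psmc5, 1100 for Psma1 and 2294 for Psmb5. On the 430A scale the repeat gave Psmc5 a ratio of 1.19 against 1.40, Psma1 -1.27 against -1.32 and Psmb5 -0.23 against -0.30. Both readings thus put Psmc5 above and Psma1 below 0, and over the 98 shared probe sets above both medians the repeat had an SD of 0.25. With 430B centred by itself, as was done for the probe sets of that array alone, the same readings became -0.41, -2.87 and -1.82, so the sign for Psmc5 turned with the scaling of 430B.

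The non-ATPase subunits make up the scaffold, the ubiquitin receptors and the lid. All 11 genes passed the floor, and by the probe sets that represent them none differed by 2-fold in either direction, with a median of -0.27. The lowest ratios were those of Psmd3, at 495 in brain and 1720 in kidney (-0.96), and Psmd8, at 473.7 and 1506 (-0.83). Psmd11 read 989.5 and 2532 (-0.51), Psmd6 654 and 1625 (-0.47) and Psmd12 383 and 872.5 (-0.35). Psmd4, a receptor for ubiquitin chains, read 479.9 and 1038 (-0.27). Psmd14, the enzyme that cuts ubiquitin off the substrate, read 884.6 and 1620 (-0.03), and the lid subunit Psmd13 273.7 and 492.9 (-0.01), though a further probe set of Psmd13 read 184.4 and 875.4 (2.65-fold higher in kidney). The large scaffold subunits read 704.4 and 1263 for Psmd1 (-0.00) and 1091 and 1745 for Psmd2 (0.16), and Psmd7, the partner of Psmd14, read 295.7 and 492.8 (0.10). With quantile normalization Psmd1, Psmd14 and Psmd2 moved to 0.35, 0.43 and 0.66.

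Of the immune beta subunits, 3 were under the floor and 1 above it. Psmb8 read 5.1 in brain and 88.2 in kidney, and Psmb9 10.2 and 57.5, each under the floor in both tissues, so no fold is given. Psmb8 stood at percentile 5.1 of the 430A brain array and 62.8 of the kidney array, and Psmb9 at 10.4 and 56.6. The kidney percentiles are among all 45037 probe sets of 430 2.0, so the bases differ and the tissues are not compared by them. Among the 430A probe sets alone, the percentile averaged over both tissues was 24.8 for Psmb8 and 24.1 for Psmb9. A further probe set of Psmb8 on 430B read 1.7 and 12.6, also under its floor. Psmb11, the beta subunit of the thymic cortex, read 44.1 in brain and 1.7 in kidney on 430B, under the floor of that array (121.5 as deposited in brain and 28.6 in kidney). Psmb10 was above the floor in both, at 185.3 and 269.8, with a ratio of 0.30 that equalled that of its constitutive counterpart Psmb7 to within 0.002. Quantile normalization opened that gap to -0.71. Psme1, a subunit of the cap that interferon induces, read 279.5 in brain and 1654 in kidney, 3.30-fold higher in kidney.

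Genes of interferon response and antigen processing were set beside these. Of 15 listed, 14 had a probe set and 7 passed the floor, all by 430A. Kidney was higher for 2 and brain for none (median -0.23), against 20.3% and 19.2% of all genes by 430A. With quantile normalization kidney was higher for 1 of 9 instead of these 2. The 2 were Tapbp, the bridge between peptide transporter and MHC class I, at 213.1 in brain and 1114 in kidney, and the class I heavy chain H2-K1, at 321.8 and 1215, which fell under 2-fold with quantile normalization. The peptide transporter genes Tap1 (63.1 and 60.5) and Tap2 (61 and 69.6) lay under the floor in both tissues. Psmb8 and Psmb9 were under it too, so no direction is read for them. The part of immune cells in the value of Psme1 was not tested; Ptprc, the pan-leukocyte marker, read 67.9 in brain and 166.8 in kidney, under the floor.

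Among the other caps and the inhibitor, Psme4, a single large protein that caps the core, read 280.1 in brain and 1270 in kidney (2.53-fold higher in kidney). Its other 430A probe sets were split, with ratios of -0.79 (232.2 and 717.9) and 0.87 (216.5 and 212.9). Psme3, the nuclear cap, read 253.9 and 384.2 (0.24), and a further probe set gave 198.5 and 218.2 (0.70). The inhibitor Psmf1 read 204.4 and 268 (0.45), while a further probe set with brain under the floor gave -0.47 (91.7 and 257.3). Deposited signals of Psme3 and Psmf1 were higher in kidney, so the sign of their ratios turned with the centring, and for Psmf1 also with the probe set.

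All 7 assembly factors passed the floor, each with a ratio below 0 and a median of -0.25. Psmg1, a chaperone of the alpha ring, was higher in kidney at 173.7 in brain and 732.5 in kidney (2.35-fold). Its partner Psmg2 read 166.9 and 448.2 (-0.58). Psmg3 read 138.4 and 261.7 (-0.08) and Psmg4 122.9 and 251.1 (-0.19), the other pair of core chaperones. The chaperones of the ATPase ring read 277.1 and 590.1 for Psmd5 (-0.25), 136.7 and 252.2 for Psmd9 (-0.04), and 60 and 340.4 for Psmd10, whose brain value was under the floor (at least 1.83-fold higher in kidney). The call for Psmg1 was lost with the floor at the 75th percentile.

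Probe sets of the same gene often differed. These genes had 83 probe sets on 430A and 64 passed the floor, with kidney 2-fold or more above brain in 17 and brain above kidney in 2. Of all 22626 probe sets there 13364 passed the floor, of which 21.1% were higher in kidney and 19.8% in brain. Over the 17 genes with more than 1 probe set above the floor, the SD between probe sets of a gene was 1.04 on the log2 scale, against 0.88 over 2830 genes of the whole array. In 9 of the 17 the probe sets gave different calls, and in 6 the ratios had opposite signs. No share over all genes is given for these 2 counts, so they are not read as particular to the proteasome. Psmc4 was the widest: its second probe set read 96.5 and 3329, at least 17.9-fold higher in kidney, against 1.62-fold for the one that represents it. For Psmd6 the second probe set read 28.6 and 2582, at least 13.9-fold, against 1.39-fold. That of Psmb4 read 295.1 and 4120 (7.79-fold against 2.21-fold). Psmd11 had ratios from -0.85 to 1.19 over 4 probe sets, and the highest, at 431 in brain and 337.7 in kidney, was the other brain call besides Psmc5.

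Some of these gaps lay between probe sets of different kinds, and others, as in Psmd11 and Psmd13, within a kind. Affymetrix marks with a suffix (_a_at, _s_at, _x_at) the probe sets that match several transcripts or share sequence with others. In 12 genes with plain and marked probe sets above the floor, the marked ones had the lower brain over kidney ratio in 11 (91.7%), with Psmg2 the exception, and the median gap was -0.94. Over 1466 genes of 430A with both kinds, the marked ones were lower in 65.7%, with a median gap of -0.46. Of the 26 marked member probe sets above the floor 12 were higher in kidney, against 1392 of 4792 marked ones on the whole array. Of the 38 plain member probe sets 5 were, against 1422 of 8572, so the plain members were called in kidney no more often than plain probe sets at large. With plain probe sets alone, the core had 2 of 12 genes higher in kidney, and Psma3 and Psmb1 turned to 0.55 and 0.33. The share of all 11383 genes was then 25%. That share includes genes read on 430B, whereas the core genes were read on 430A apart from Psma3, so the 2 are not alike. For Psma3 the plain probe set is on 430B, and for Psmb1 the ratio is a bound, with the kidney signal of 110.8 under the floor.

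**Figure D4:**
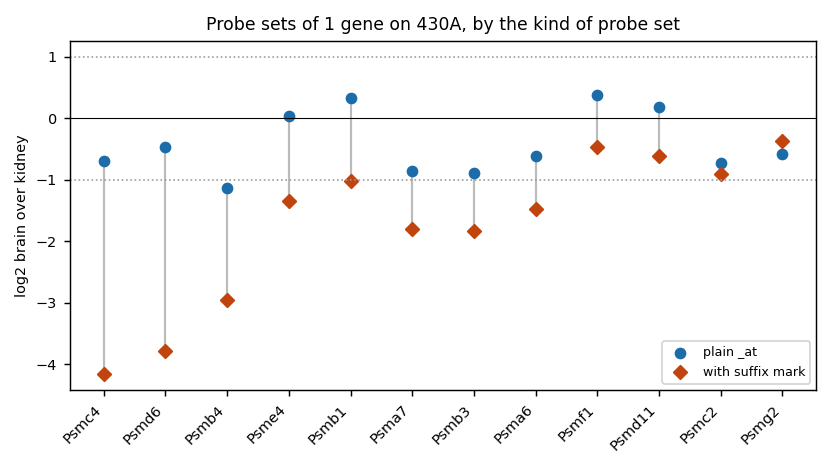
Log2 brain over kidney of 12 proteasome genes by their plain probe sets (circles) and by those with a suffix mark (diamonds), medians where there are several, sorted by the gap; dotted lines mark 2-fold. The diamond is the lower one in every gene but Psmg2, and the gap is widest for Psmc4 and Psmd6.

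Of 18 member probe sets on 430B, 8 passed the floor of that array, beside 13354 of the 22411 that are not on 430A. Of the 8, 1 was higher in brain and 1 in kidney, against 18.7% and 23.8% of all 13354. The brain one belonged to Psmg2, at 243.8 and 13.6 (at least 2.01-fold), against the direction of its 430A probe sets. The kidney one belonged to Psmc3ip, a partner of meiotic recombinases, at 21.3 and 193.6 (at least 6.76-fold). Psme3ip1 read 296.6 in brain and 397.4 in kidney on 430A (ratio 0.42).

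Partners of the proteasome were set beside its genes. Of 28 listed genes 19 had a probe set, all above the floor. Brain was the higher tissue for 3 and kidney for 5, and 11 stayed within 2-fold, near the 17.8% and 27% of all genes. The balance turned with the scaling, to 6 and 2 with quantile normalization, 4 and 3 on the 430A scale and 1 and 6 as deposited. They had a median of 0.29 that turned to -0.24 with signals as deposited. Nfe2l2, a stress-response transcription factor that induces proteasome genes, read 139 in brain and 1301 in kidney (5.22-fold higher in kidney). Its relative Nfe2l1, which restores proteasome genes after inhibition, read 959.6 and 966.6 (0.83). The ubiquitin ligase Ube3c, which binds the regulatory particle, was 2.88-fold higher in brain (350 and 217.7; within 2-fold as deposited, at 0.69). Ecpas, a proteasome adaptor, and Uba6, an enzyme that activates ubiquitin, were called higher in kidney at -2.30 and -1.59, both on 430B, and came to -0.70 and 0.00 on the 430A scale. Rad23b, a shuttle that carries ubiquitinated proteins, was 2.42-fold higher in brain (861.6 and 637.1), and Sem1, a small subunit of the lid not matched by the naming rule, 2.02-fold higher in kidney (648.6 and 2346). The first came within 2-fold as deposited (0.44) and the second with quantile normalization (-0.62). Rad23b, Sem1 and Nfe2l1 were picked after their values were seen.

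The promoters of the genes were read because the core genes leaned the same way. RefSeq promoter windows (GRCm38.p6, 250 bases before to 50 after the start) were at hand for 40 of the 48 subunit, activator and assembly genes. Each window was searched on both strands for the letters of known regulatory motifs. The CCAAT box (CCAAT) was in 14 of 40 genes, 35% against 41.1% of 27025 genes. The antioxidant response element (TGACNNNGC), the site of the Nfe2l factors, was in 6, 15% against 13.99%: Psmb5, Psmb6, Psmc6, Psmd9, Psmd12 and Psme4. The core of the interferon-stimulated response element (GAAA, any 2 bases, then GAAA) was in 5, 12.5% against 3.99%: Psmb3, Psmd4, Psmd9, Psme1 and Psmg4. The gamma-activated site (TTCNNNGAA) was in 3, 7.5% against 9.55%: Psmb8, Psmd2 and Psmg1. The consensus site of nuclear respiratory factor was in 2, 5% against 1.07%: Psma2 and Psmg1. A match is a run of letters and not a shown binding site.

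The 250 bases before the start are printed for 6 genes: Psma1, Psma7 and Psmb3 as core genes higher in kidney, Psmb6 as a catalytic subunit within 2-fold, Psmb8 as an immune subunit and Psmc5 as the gene that ran the other way. Capitals mark every motif match of these 5 on either strand.
Psma1, chr7:114276117-114276366, minus strand: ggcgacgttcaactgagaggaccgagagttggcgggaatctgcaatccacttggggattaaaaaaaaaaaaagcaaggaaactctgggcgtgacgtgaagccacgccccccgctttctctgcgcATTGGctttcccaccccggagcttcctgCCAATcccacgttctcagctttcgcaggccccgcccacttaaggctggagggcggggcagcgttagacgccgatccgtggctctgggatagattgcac
Psma7, chr2:180042465-180042714, minus strand: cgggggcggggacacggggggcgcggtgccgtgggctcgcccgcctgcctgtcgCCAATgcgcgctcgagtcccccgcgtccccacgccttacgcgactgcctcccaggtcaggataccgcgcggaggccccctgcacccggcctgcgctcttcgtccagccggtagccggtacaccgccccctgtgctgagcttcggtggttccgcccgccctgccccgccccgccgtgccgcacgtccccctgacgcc
Psmb3, chr11:97703184-97703433, plus strand: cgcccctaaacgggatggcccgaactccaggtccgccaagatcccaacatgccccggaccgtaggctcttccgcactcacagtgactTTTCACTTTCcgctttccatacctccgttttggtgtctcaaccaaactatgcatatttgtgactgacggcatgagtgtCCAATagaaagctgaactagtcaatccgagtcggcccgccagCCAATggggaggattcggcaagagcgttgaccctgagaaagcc
Psmb6, chr11:70525107-70525356, plus strand: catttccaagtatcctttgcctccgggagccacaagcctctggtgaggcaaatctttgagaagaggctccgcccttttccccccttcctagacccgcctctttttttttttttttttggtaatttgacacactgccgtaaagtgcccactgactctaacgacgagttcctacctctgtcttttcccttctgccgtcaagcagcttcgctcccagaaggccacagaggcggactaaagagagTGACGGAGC
Psmb8, chr17:34197945-34198194, plus strand: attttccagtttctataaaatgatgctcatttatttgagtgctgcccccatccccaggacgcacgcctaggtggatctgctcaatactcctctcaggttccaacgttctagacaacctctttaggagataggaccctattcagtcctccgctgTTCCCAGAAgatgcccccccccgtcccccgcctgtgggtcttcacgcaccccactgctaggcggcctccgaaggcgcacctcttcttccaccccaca
Psmc5, chr11:106255935-106256184, plus strand: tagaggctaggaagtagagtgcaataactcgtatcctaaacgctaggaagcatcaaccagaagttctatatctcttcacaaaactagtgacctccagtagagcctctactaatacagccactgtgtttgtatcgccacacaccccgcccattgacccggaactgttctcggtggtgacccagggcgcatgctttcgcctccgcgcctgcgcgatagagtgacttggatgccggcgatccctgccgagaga

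Psma1 held CCAAT matches from positions -126 and -98 and Psma7 1 from -196, counted from the start. Psmb3 held matches from -85 and -43 and the interferon element core from -163. Psmb6 held the antioxidant element from -9, and Psmb8 the gamma-activated site from -97. The window of Psmc5 held none of the 5. Over member genes with a window and a ratio, the 12 with a CCAAT match had a median of -0.88 and the 24 without one -0.32. The 12 include the core genes Psma1, Psma2, Psma3, Psma6, Psma7 and Psmb3, so this contrast is not separate from the lean of the core. For the antioxidant element the medians were -0.32 (6 genes) and -0.55 without it (30). For the interferon element core they were -0.27 (5) and -0.51 (31). The gamma-activated site gave -0.54 (2) and -0.49 (34), and the nuclear respiratory factor site -0.93 (2) and -0.43 (34). These medians describe the letters and ratios side by side and rest on few genes.

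Most antisense signals were under the floor, as for reverse probe sets at large. The 12 reverse probe sets covered 10 genes, and 3 were above the floor of their array pair (63.5 on U74A and 98.5 on U74B) in at least 1 tissue. This floor is the higher 75th percentile of the pair, so most probe sets lie under it by construction. Of all reverse probe sets, 723 of 2611 passed on U74A and 983 of 3041 on U74B. The member count is therefore not read as particular to the proteasome. The reverse probe set of Psme2, the other subunit of the cap that interferon induces, read 150.8 in brain. In kidney it read 25.9, so brain was at least 2.37-fold higher. This probe set was 1 of 2 above the floor among the 9 members on U74A, and the only reverse one called. Of 723 U74A probe sets above the floor 28.8% were higher in brain and 3.73% in kidney. By gene, 19.8% of 1009 were higher in brain and 4.66% in kidney over both array pairs. The ratio of Psme2 fell to 0.10 with the floor at the 90th percentile. On U74B 1 of the 3 members passed the floor and it was not called. Of all 983 above the floor there, 14.3% were higher in brain and 6.41% in kidney.

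A reverse probe set of Psmb1 was bright in both tissues, at 296.6 in brain and 168.8 in kidney, at percentiles 96.6 and 96.9 of the reverse probe sets. Its ratio of 0.81 became 0.28 after the pair was centred and -0.08 with quantile normalization. The other reverse probe set of Psmb1 read 6.5 and 23.3, under the floor, so the gene's antisense signal rested on 1 probe set of the marked kind (_f_at, shared within a sequence family). The sense signal of Psmb1 was 2.03-fold higher in kidney by the probe set that represents it. For Psmf1, 1 reverse probe set of the same marked kind read 71.6 and 126.4 (a ratio of -0.36, with brain under the floor), while the other read 33.7 and 28.6.

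The remaining reverse probe sets were under the floor in both tissues. That of Psmd11 read 44.1 in brain and 32.9 in kidney, and that of Psmc1 12.5 and 30.9. Psmd6 read 9.2 and 19.1, Psmc5 10.1 and 11.9, Psmd13 7.8 and 7.2, and Psmc6 5 and 35.8. Psmb5 read 2.1 and 1.8, among the lowest of the array. Sense signals of these same 7 genes were all above the floor in both tissues.

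**Figure D5:**
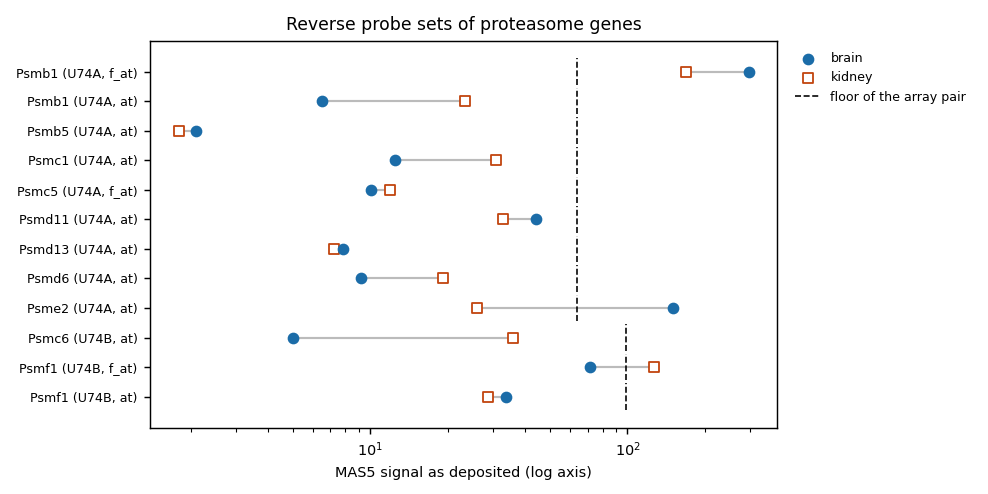
Deposited signal of the 12 reverse probe sets of proteasome genes in brain (circles) and kidney (squares) on a log axis, with the floor of each array pair dashed (63.5 on U74A, 98.5 on U74B). Both values of 1 Psmb1 probe set lie right of the floor, as do the brain value of Psme2 and the kidney value of 1 Psmf1 probe set, and all others lie left of it.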

How the data were processed

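Brain and kidney RNA was read on 7 Affymetrix arrays, and the authors deposited MAS5 signals, a linear intensity (submitters' processing notes). Labelled cRNA came from 8 micrograms of brain total RNA and 6.75 of kidney, and reverse probe sets were those in Affymetrix's mask, per the labels. The scaling target and detection calls are not used here.

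Ratios were computed in Python 3.11.15 (pandas 2.3.3, numpy 2.4.6). Sense pairs were centred by the median log2 ratio over probe sets brighter than both arrays' medians, which removed -0.84 from 430A and 2.08 from 430B, with the floor at the higher median (186.4 and 28.6). Reverse pairs were used as deposited, with the floor at the higher 75th percentile. Past 2-fold counts as a call. The 100 probe sets on both brain arrays were used once, from 430A, and as the repeat reading. Every member may be named, and from other lists the 4 genes with the largest ratio, but the text also gives further list genes and says which were picked after their values were seen. Tap1, Tap2, Ptprc and Nphs1 were likewise picked then. Genes were named through GEO's annotation, with other lists updated to RefSeq symbols. The members and lists were chosen with earlier results of these data known. The ratios and calls were tested on simulated data with known folds. The alternatives were other scalings, floors, folds and choices of probe set. Listed genes with no probe set under 1 symbol were not analysed here. Precision is limited by having 1 array per tissue and design.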

Additional observations from a re-analysis of the deposited data

How the results depend on the processing

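The core's median stayed below that of all genes under all 8 other settings tried. Of these settings, 1 (plain probe sets alone) was chosen after seeing the data. With plain probe sets the core's kidney calls were 2 of 12, against 25% of all genes, a share that includes 430B. With signals as deposited, the medians were -1.36 for all 43 genes, -1.92 for the core, -1.19 for the regulatory particle and -1.09 for the assembly factors, with 45 kidney and 0 brain probe sets on 430A, and 0 and 2 on 430B. Quantile normalization gave the core -0.67, the regulatory particle genes -0.046, above the -0.088 of all genes, the assembly factors -0.57 and Psmb10 minus Psmb7 -0.71, with 2 kidney probe sets on 430B. Taking the median over each gene's probe sets gave the core -0.51. Plain probe sets gave the core -0.62, with 5 kidney probe sets on 430A and 0 on 430B, and turned Psma3 to 0.55 and Psmb1 to 0.33. Without a floor, 15 probe sets of 430A were higher in brain, and on 430B 5 in each tissue. At the 75th percentile floor 1 on 430A and 0 on 430B were higher in brain, and at the 430A scale 2 on 430B. At 1.5-fold, 31 were higher in kidney and 4 in brain on 430A, 2 in kidney on 430B, and 2 reverse ones in brain on U74A; with the reverse floor at the 90th percentile 0 were. The all-gene median, -0.11 as reported, ran from -0.30 (75th percentile floor) to 0.31 (430A scale). Psma5 and Psme1 kept their kidney call under every setting in which they were measured. No paired analysis was possible because each tissue had 1 array per design. Signal over background limits Psmb8, Psmb9, Psmb11, Psma8 and 9 of the 12 reverse probe sets.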

Other observations

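The lean of marked probe sets to kidney was seen over the whole 430A array: the median log2 ratio was 0.17 for the 8572 plain probe sets above the floor and -0.21 for the 4792 with a suffix mark. Among the proteasome genes these medians were -0.43 (38 probe sets) and -0.88 (26), so both kinds stood below those of the array.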
